A study of Mus musculus with 18 samples.

Results

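Transcripts that mark leukocytes or the lining of blood vessels (10 genes) were followed through 6 cell lines of malignant peripheral nerve sheath tumor (MPNST), a sarcoma of the nerve sheath. The 10 members, out of 35275 genes in the count table, were taken by gene name: *Laptm5*, *Ptprc*, *Tyrobp*, *Fcer1g*, *Spi1*, *Csf1r* and *Lyz2* for leukocytes, and *Esam*, *Pecam1* and *Kdr* for endothelial cells. The question was whether *Laptm5* and *Esam*, both known beforehand to be high in one of the genotypes, came with other genes of the same cell types in each line. The set was therefore selected on the read counts of those 2 genes in each genotype, and the values of the members by genotype are given as a description without a test.

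The lines came from tumors raised in wild-type 129 Sv/Jae mice by injecting an adenovirus (Ad5-CMV) that carried Cas9 and guide RNAs into the sciatic nerve. Guides against *Nf1* and p53 (gene *Trp53*) gave the 3 *Nf1*/*p53* dKO lines, and guides against *Nf1* and *Cdkn2a* gave the 3 *Nf1*/*Cdkn2a* dKO lines, so that loss of *Nf1* was common to both groups. Each line was 1 tumor, dissociated with collagenase and dispase, strained and passaged many times, and the labels call the cells mesenchymal. From each line 3 cultures were sequenced, which makes 18 libraries, and the ages of the mice are not given in the sources used here. The CMV promoter of the virus is active in many cell types, so the type of cell in which a tumor began is not fixed by the method.

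Leukocytes and endothelial cells are usual components of a nerve sheath tumor. *Ptprc* (CD45) is a phosphatase on nearly all nucleated blood cells, *Spi1* encodes PU.1, the transcription factor that sets up the myeloid program, and *Tyrobp* (DAP12) and *Fcer1g* are adaptors that carry immune receptor signals inward. *Laptm5* is a lysosomal membrane protein of blood cells that helps to send receptors to degradation. *Esam* is an adhesion molecule of endothelial tight junctions, where it sits near *Pecam1* (CD31), and *Kdr* (VEGFR2) is the main VEGF receptor of the vessel wall. Bulk RNA-seq gives the sum over all cells of a culture, so fewer cells of a type and less RNA per cell cannot be told apart.

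The libraries held 19560535 to 28312207 counted reads (median 23149777), and adding the 3 cultures gave 65206479 to 73065228 reads per line. Levels are given as reads per culture, or as CPM (counts relative to the library total, scaled with TMM) of the summed line. RNA of all 3 targeted genes was counted in every library, with *Trp53* at 58.7 to 94.1 CPM for *Nf1*/*p53* dKO and 184.8 to 246.9 CPM for *Nf1*/*Cdkn2a* dKO, and *Cdkn2a* at 42.9 to 363.0 and 168.8 to 391.6 CPM. These gene totals are not a readout of the edits. All 10 mesenchymal marker genes listed passed the filter on low counts, and *Vim*, the intermediate filament of mesenchymal cells, was at 4727 to 10210 CPM in the 6 lines.

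**Figure D1:**
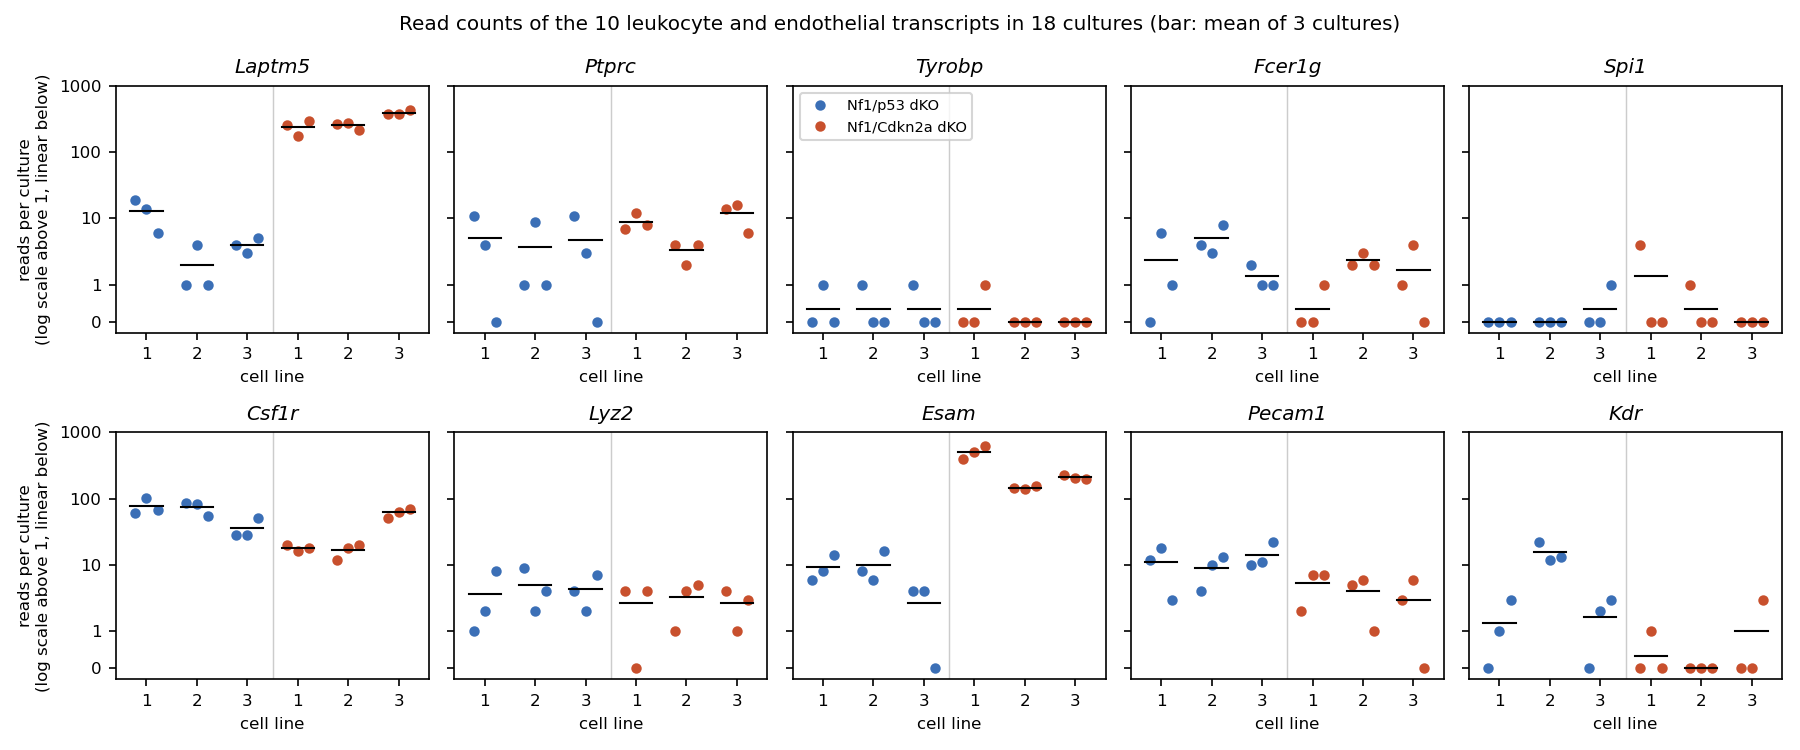
Reads per culture of each of the 10 transcripts. Each point is 1 culture, each bar the mean of the 3 cultures of a line, and the vertical axis is logarithmic above 1 and linear below it; *Laptm5* and *Esam* were above 100 reads in all 9 *Nf1*/*Cdkn2a* dKO cultures, while *Tyrobp* and *Spi1* never exceeded 4 reads in any culture.

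*Laptm5* had 176 to 432 reads in every *Nf1*/*Cdkn2a* dKO culture and at most 19 in any *Nf1*/*p53* dKO culture. In the *Nf1*/*p53* dKO group the reads were 19, 14 and 6 in line 1, 1, 4 and 1 in line 2, and 4, 3 and 5 in line 3. In the *Nf1*/*Cdkn2a* dKO group they were 260, 176 and 297 in line 1, 268, 277 and 217 in line 2, and 381, 376 and 432 in line 3. Every *Nf1*/*Cdkn2a* dKO culture was above every *Nf1*/*p53* dKO culture. Relative to their level, the cultures of *Nf1*/*p53* dKO lines 1 and 2 spread more widely than those of any *Nf1*/*Cdkn2a* dKO line. Over lines this was 0.251 ± 0.222 CPM (SD, n = 3 lines) against 13.8 ± 4.19 CPM (n = 3), a fitted difference of 5.76 on the log2 scale (SE 0.74), which was 5.37 to 6.76 when 1 line at a time was left out. In the *Nf1*/*Cdkn2a* dKO lines the mean level was above that of 45.5% of the genes that passed the filter.

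*Esam* had the same division between the genotypes but another order of lines. The *Nf1*/*p53* dKO cultures had 6, 8 and 14 reads in line 1, 8, 6 and 16 in line 2, and 4, 4 and 0 in line 3. The *Nf1*/*Cdkn2a* dKO cultures had 398, 515 and 622 reads in line 1, 147, 139 and 154 in line 2, and 228, 209 and 198 in line 3. The groups did not overlap, and line 1 stood above lines 2 and 3 in all of its cultures. The line means were 0.299 ± 0.166 CPM and 13.6 ± 9.69 CPM (n = 3 each), a difference of 5.50 on the log2 scale (SE 0.78; 4.77 to 5.85 with 1 line left out).

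None of the other members had that pattern. Among the leukocyte genes, *Tyrobp* had 4 reads in all 18 libraries together, 1 in each of 4 cultures, of which 3 were *Nf1*/*p53* dKO. *Spi1* had 6 reads in all, 4 of them in the first culture of *Nf1*/*Cdkn2a* dKO line 1, and was at 0 in 15 libraries. *Fcer1g* had 0 to 8 reads per *Nf1*/*p53* dKO culture and 0 to 4 per *Nf1*/*Cdkn2a* dKO culture (26 and 13 reads in all). These 3 genes and *Kdr* were below the filter, so 6 of the 10 members entered the comparison of genotypes.

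*Ptprc* had 11, 4, 0, 1, 9, 1, 11, 3 and 0 reads in the cultures of *Nf1*/*p53* dKO lines 1 to 3 and 7, 12, 8, 4, 2, 4, 14, 16 and 6 in those of *Nf1*/*Cdkn2a* dKO lines 1 to 3. Its line levels were 0.193, 0.156 and 0.194 CPM against 0.433, 0.144 and 0.563 CPM, so that *Nf1*/*Cdkn2a* dKO line 2 was below all *Nf1*/*p53* dKO lines and the groups overlapped. *Lyz2*, the lysozyme of macrophages and neutrophils, had 1 to 9 reads per *Nf1*/*p53* dKO culture and 0 to 5 per *Nf1*/*Cdkn2a* dKO culture, with overlapping lines. Both genes were thus counted in at most 16 reads in any culture of either genotype.

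*Csf1r*, the receptor through which CSF1 keeps macrophages alive, was the leukocyte member with the most reads in the *Nf1*/*p53* dKO cultures. It had 61, 102 and 68 reads in line 1, 87, 82 and 55 in line 2, and 28, 28 and 51 in line 3 of that genotype. The *Nf1*/*Cdkn2a* dKO cultures had 20, 16 and 18, then 12, 18 and 20, then 52, 64 and 71. The level was 2.54 ± 0.924 CPM against 1.504 ± 1.23 CPM (n = 3 lines each), the lines overlapped, and the difference of -0.76 on the log2 scale (SE 0.64) grew to -1.67 without *Nf1*/*Cdkn2a* dKO line 3. *Csf1r* shares 873 of its 5774 exon bases (15.1%) with *Hmgxb3* on the opposite strand, a gene at 38.6 to 56.1 CPM in the 6 lines, and whether the counting used strand is not given in the sources used here, so the count of *Csf1r* is uncertain.

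The other endothelial members were low, and lower in the genotype where *Esam* was high. *Pecam1* had 12, 18, 3, 4, 10, 13, 10, 11 and 22 reads in the *Nf1*/*p53* dKO cultures and 2, 7, 7, 5, 6, 1, 3, 6 and 0 in the *Nf1*/*Cdkn2a* dKO cultures, in the order of lines 1 to 3. The line levels of *Pecam1*, 0.425, 0.382 and 0.595 CPM against 0.257, 0.173 and 0.141 CPM, did not overlap, with a difference of -1.29 on the log2 scale (SE 0.45). *Kdr* had 22, 12 and 13 reads in *Nf1*/*p53* dKO line 2, 0 to 3 in each culture of the other lines of that genotype, and 4 reads in all 9 *Nf1*/*Cdkn2a* dKO cultures together. Over all tested genes, lines that did not overlap are common (31.4% of 15207 genes, 14.8% with *Nf1*/*Cdkn2a* dKO above and 16.6% with it below).

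Counts per kb of exon, which allow levels of different genes to be set side by side, put *Laptm5* above the other leukocyte members in each *Nf1*/*Cdkn2a* dKO line. Its ratio to *Ptprc* was 131 (95% counting interval 89.5 to 200.5) in line 1, 368 (199.2 to 771.3) in line 2 and 160 (115 to 229) in line 3. In the *Nf1*/*p53* dKO lines the same ratio was 12.6 (6.78 to 24.5), 2.64 (0.801 to 7.78) and 4.14 (1.75 to 9.65). Taking the longest transcript as the length in place of all exons gave 59.9, 168.2 and 72.9 in the *Nf1*/*Cdkn2a* dKO lines, since the exons of *Ptprc* cover 18313 bases in all and its longest transcript 5740. The intervals cover counting error only.

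The ratio of *Laptm5* to *Tyrobp* was 129 (23.1 to 5105) in *Nf1*/*Cdkn2a* dKO line 1, and in lines 2 and 3, where *Tyrobp* had no read, at least 44.7 and 69.8 with *Tyrobp* set to 3 counts per line. The ratio of *Laptm5* to *Fcer1g* was 169 (30.3 to 6689), 25.1 (12.1 to 62.7) and 54.9 (23.5 to 169.3) in the same lines. Against *Csf1r*, *Laptm5* was higher per kb in every *Nf1*/*Cdkn2a* dKO line (20.7, 23.2 and 9.69) and lower in every *Nf1*/*p53* dKO line (0.257, 0.0408 and 0.171). Since *Laptm5* was selected on its level by genotype, the change of these ratios between genotypes is a description.

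*Esam* exceeded *Pecam1* per kb by 208 (127.9 to 365.5), 79.7 (45.1 to 155.3) and 153 (80.2 to 336.7) times in *Nf1*/*Cdkn2a* dKO lines 1, 2 and 3. In the *Nf1*/*p53* dKO lines the ratio was 1.84 (1.07 to 3.15), 2.41 (1.39 to 4.22) and 0.404 (0.164 to 0.870). Against *Kdr* it was at least 462 in *Nf1*/*Cdkn2a* dKO line 2, with *Kdr* set to 3 counts, and 667 (227.1 to 3241) in line 3.

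**Figure D2:**
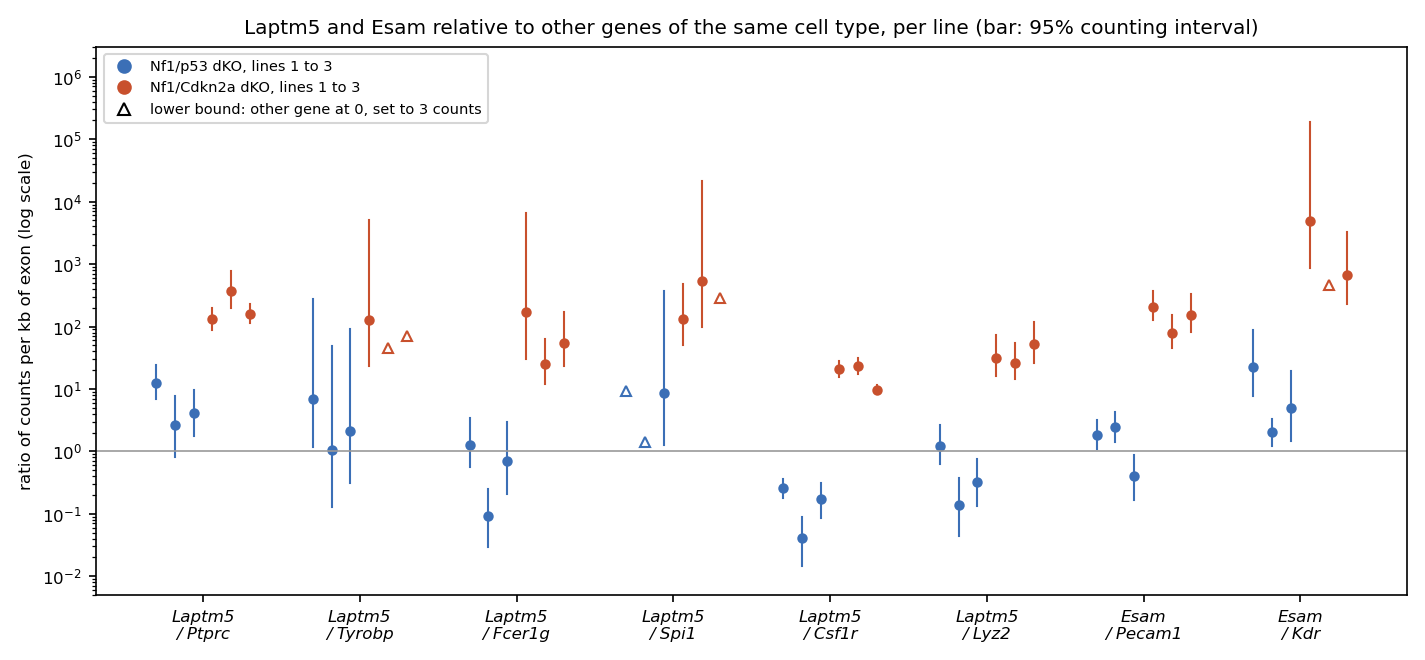
Ratio of counts per kb of exon, on a logarithmic axis, for *Laptm5* over 6 leukocyte members and *Esam* over 2 endothelial members. Points are single lines, bars the 95% counting interval, and open triangles lower bounds where the other gene had no read; for *Laptm5* over *Ptprc* *Nf1*/*Cdkn2a* dKO ranged from 131 to 368 and *Nf1*/*p53* dKO from 2.64 to 12.6.

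Lines of one genotype differed in several members, which the choice of members did not use. Across the 18 cultures, a test of the 3 lines of a genotype against each other (edgeR quasi-likelihood, Benjamini-Hochberg adjusted over 14690 genes) called 73.2% of all genes in the *Nf1*/*p53* dKO group and 56.8% in the *Nf1*/*Cdkn2a* dKO group, so a call is the usual state of a gene here. These p-values measure only the spread between cultures of a line. Among the 6 members that passed the filter in that fit, 4 were called between the *Nf1*/*p53* dKO lines and 3 between the *Nf1*/*Cdkn2a* dKO lines.

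*Laptm5* was highest in *Nf1*/*Cdkn2a* dKO line 3, at 18.6 CPM against 11.8 and 10.99 CPM in lines 1 and 2 (adjusted p = 0.000683), and the levels of lines 1 and 2 differed by less than the spread of their cultures. *Esam* was highest in line 1, at 24.6 CPM against 6.35 and 9.93 CPM (adjusted p = 8.65e-09), and *Csf1r* in line 3, at 2.93 CPM against 0.866 and 0.721 CPM (adjusted p = 7.69e-06). *Laptm5* and *Esam*, although high in the same 3 lines, thus ranked those lines differently. *Ptprc* (adjusted p = 0.187) and *Pecam1* (adjusted p = 0.687) missed the threshold there.

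Between the *Nf1*/*p53* dKO lines, *Laptm5* was highest in line 1 (0.503 CPM, against 0.0849 and 0.166 CPM; edgeR adjusted p = 0.000552), and this was 0.0622 without the first cultures. *Esam* was lowest in line 3 (0.111 CPM against 0.361 and 0.424 CPM; edgeR adjusted p = 0.0187, and 0.431 without the third cultures, of which the one of line 3 had 0 reads). *Csf1r* was lowest in the same line (1.48 CPM against 2.98 and 3.17 CPM; edgeR adjusted p = 0.00459), a call that was lost without the first (0.0734) or the second cultures (0.160). *Kdr* was called as well (edgeR adjusted p = 0.00102), with 47 of the 56 *Nf1*/*p53* dKO reads in line 2.

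The rest of the leukocyte genes were read from 6 lists (pan-leukocyte, macrophage and monocyte, T and NK cell, B and plasma cell, granulocyte and mast cell, dendritic cell and MHC class II) with 86 genes beside the members. Of these, 9 had no read in any library (*Cd48*, *Arhgap30*, *Ms4a7*, *Cd3d*, *Cd8a*, *Mcpt4*, *Tpsb2*, *Fcer1a* and *Siglech*) and 34, those included, had at most 3 reads in every library. Of all 35275 genes, 11416 had no read in any library and 15353, those included, had at most 3, so such counts were common in general. Among the 34 were defining markers such as *Cd52*, *Rac2*, *Aif1*, *Adgre1* (F4/80), *C1qa*, *Cd3e* and *Ms4a1* (CD20). The number of the 86 genes at 1 CPM or more was 9, 7 and 10 for *Nf1*/*p53* dKO lines 1, 2 and 3, and 10, 11 and 8 for *Nf1*/*Cdkn2a* dKO lines 1, 2 and 3. Of all 35275 genes, 11776 to 12311 per line were at 1 CPM or more.

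Of the 86 genes, 20 passed the filter, with a median difference of 0.33 on the log2 scale against -0.023 over all tested genes, and 1 of them, *Cd53*, was called. At an adjusted p under 0.05 over all genes, 1.8% of the 15207 tested genes were called, 0.638% with the higher level in *Nf1*/*Cdkn2a* dKO and 1.16% with the lower (97 and 177 genes, or 86 and 337 when scaled by raw totals, which moved the median of all genes to -0.16). At an unadjusted p under 0.05 there were 7 of the 20, and 3400 of the 15207 genes tested in all. Lines did not overlap for 9 genes, 7 with the *Nf1*/*Cdkn2a* dKO lines above and 2 with them below. Over all tested genes this held for 31.4%, with 14.8% above and 16.6% below. A gene that passed the filter only through the group where it is high had to differ, so the counts for the 20 do not describe the list as a whole.

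*Cd53*, a tetraspanin of leukocytes, had line levels of 1.78, 1.27 and 2.41 CPM for *Nf1*/*p53* dKO and of 11.1, 10.0 and 12.3 CPM for *Nf1*/*Cdkn2a* dKO. The groups did not overlap, and *Cd53* rose by 2.61 on the log2 scale (SE 0.32; edgeR adjusted p = 0.0287). The call held without *Nf1*/*p53* dKO line 3 (0.0380) and was lost without any one of the other 5 lines (up to 0.119). With the line number as a block the p was 0.103. Over all genes, 274 calls became 0 to 172 with 1 line left out and 0 with the block. Calls of most genes were thus lost in these fits, which also holds for the losses of single genes given below.

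By the mean over the 6 lines, the highest levels in the 6 lists were those of *Arhgdib* and *Cytip*. *Arhgdib*, a regulator of small GTPases abundant in blood cells, was at 80.9, 116.7 and 17.9 CPM against 395.8, 192.8 and 193.0 CPM (log2 difference 1.86, edgeR adjusted p = 0.173). *Cytip*, a partner of cytohesin in lymphocytes, was at 10.8, 0.226 and 1.02 CPM against 47.9, 30.8 and 42.2 CPM (3.33, edgeR adjusted p = 0.189, and 0.0466 without *Nf1*/*p53* dKO line 1). Neither was called with all lines, and in neither did the lines overlap. The summed level of the lists without the members was 129.7, 140.5 and 53.8 CPM for *Nf1*/*p53* dKO lines 1 to 3 and 490.5, 291.2 and 279.6 CPM for *Nf1*/*Cdkn2a* dKO lines 1 to 3, and without *Arhgdib* and *Cytip* it was 38.0, 23.5 and 34.8 against 46.8, 67.6 and 44.4 CPM.

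Other genes with separate lines had lower means over the 6 lines than *Arhgdib* and *Cytip*. *S100a8*, a calcium-binding protein of neutrophils, was at 0.284, 0.0707 and 0.0138 CPM against 2.94, 9.85 and 6.30 CPM (log2 difference 5.67, edgeR adjusted p = 0.0529). Its difference was near those of *Laptm5* (5.76) and *Esam* (5.50), and it had 183, 683 and 403 reads in *Nf1*/*Cdkn2a* dKO lines 1 to 3. *Itgax* (CD11c) was at 0.116, 0.354 and 0.0277 CPM against 3.03, 1.04 and 1.94 CPM (3.58, edgeR adjusted p = 0.0920). *Lcp1* (L-plastin) was at 0.0773, 0.0990 and 0.0415 CPM against 0.866, 0.548 and 0.250 CPM (2.90, edgeR adjusted p = 0.0714). On the other side, *Cd74*, the invariant chain of MHC class II, was at 0.245, 0.566 and 0.401 CPM against 0.144, 0.101 and 0.0156 CPM (edgeR adjusted p = 0.161), and the actin regulator *Coro1a* at 0.812, 0.325 and 0.471 CPM against 0.257, 0.245 and 0.297 CPM (edgeR adjusted p = 0.269).

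By cell type, the genes of highest level were as follows. Among macrophage genes, *Cd14* was at 7.86 to 18.6 CPM among *Nf1*/*p53* dKO and 10.3 to 27.9 CPM among *Nf1*/*Cdkn2a* dKO lines, and *Cd68*, a lysosomal protein, at 1.97 to 4.38 and 4.33 to 7.14 CPM. No gene was called among the 4 macrophage genes tested, none of which had separate lines, although 7 of the 20 listed there beside the members had 1 to 3 reads at most. Of all tested genes, 1.8% were called and 31.4% had separate lines. Of T and NK cell genes only *Lck* passed the filter (0.170 to 1.34 CPM over the 6 lines), and of the 8 B and plasma cell genes none did, *Cd79a* being the highest at up to 0.250 CPM. *Irf8*, a transcription factor of myeloid cells listed beside *Spi1*, was at 0.754, 3.59 and 0.203 CPM for *Nf1*/*Cdkn2a* dKO and 0.152 to 0.198 CPM in the other genotype (edgeR adjusted p = 0.151).

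**Figure D3:**
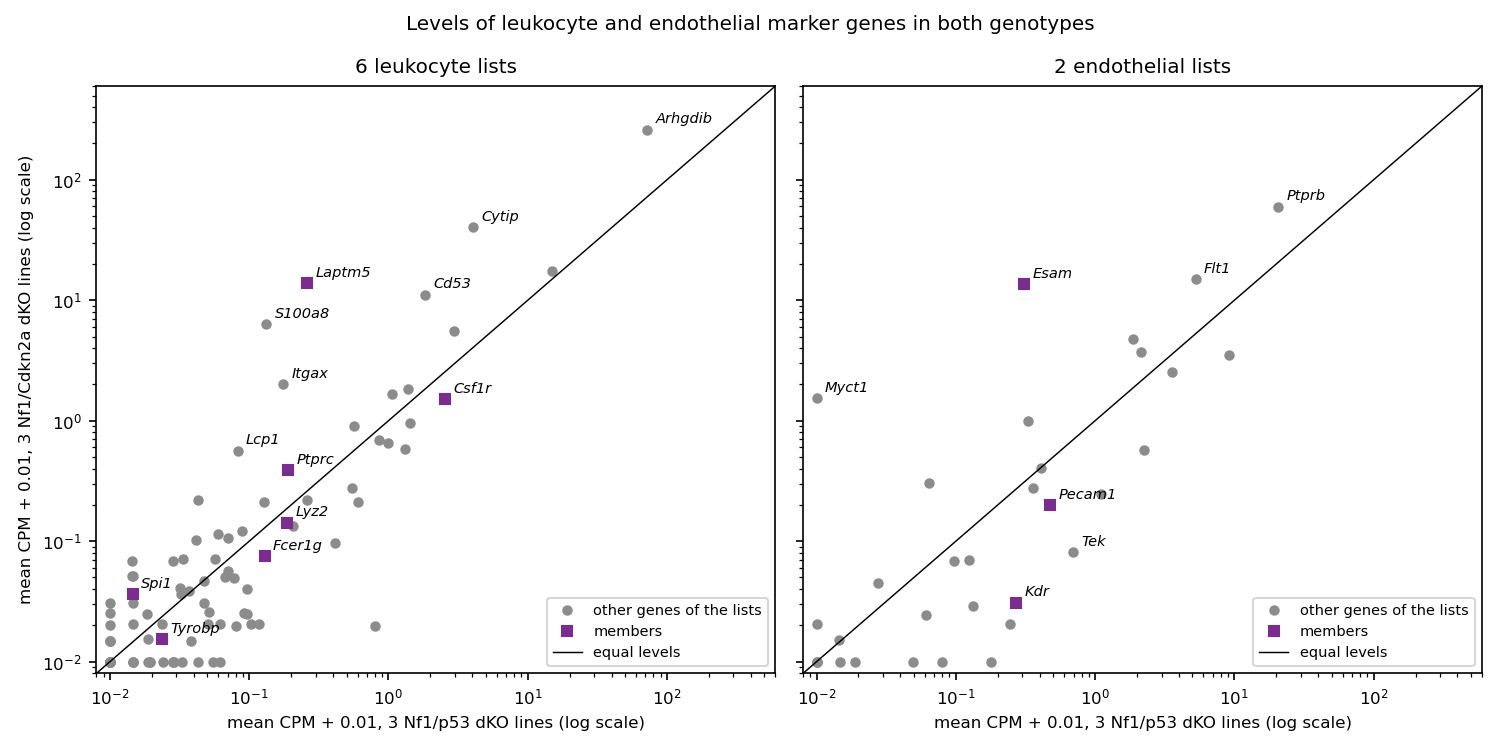
Mean level of each listed gene in the 3 *Nf1*/*p53* dKO lines (horizontal) and the 3 *Nf1*/*Cdkn2a* dKO lines (vertical), in CPM with 0.01 added, on logarithmic axes, for 6 leukocyte lists (left) and 2 endothelial lists (right). Squares are members, circles other genes of the lists, and the line marks equal levels; *Laptm5*, *Cd53*, *Cytip*, *S100a8* and *Esam* lie above the line, and *Tyrobp*, *Spi1*, *Fcer1g* and *Lyz2* lie at the low end of both axes.

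The 2 endothelial lists (vascular and lymphatic) held 30 genes beside the members, of which 3 had no read in any library (*Sox17*, *Mmrn1* and *Ccl21a*) and 7, those included, had at most 3. Of all 35275 genes, 11416 had no read in any library and 15353 had at most 3. The number of list genes at 1 CPM or more was 7, 6 and 7 for *Nf1*/*p53* dKO and 6, 7 and 7 for *Nf1*/*Cdkn2a* dKO, where 11776 to 12311 of all genes per line reached it. Of 13 tested, 1 was called higher, 1 was called lower and the median log2 difference was -0.0015. Over all tested genes 1.8% were called. Lines did not overlap for 1 higher and 4 lower genes, where 14.8% of all tested genes were higher and 16.6% lower in this way. Genes that passed the filter only through the group where they are high had to differ, so the counts for the 13 do not describe the lists as a whole.

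*Myct1*, a membrane protein of endothelial and blood-forming cells, had no read in any *Nf1*/*p53* dKO library and 67, 111 and 121 reads in *Nf1*/*Cdkn2a* dKO lines 1, 2 and 3 (1.08, 1.60 and 1.89 CPM). This was at least 37.3-fold higher when each *Nf1*/*p53* dKO line is set to 3 counts (edgeR adjusted p = 0.0287). The call was lost without *Nf1*/*p53* dKO line 2 or any *Nf1*/*Cdkn2a* dKO line (up to 0.114), and with the line number as a block it was 0.134. *Tek* (TIE2), the angiopoietin receptor of endothelial cells, fell, from 0.412, 0.566 and 1.08 CPM to 0.0642, 0.0721 and 0.0782 CPM (log2 difference -3.23, SE 0.55, edgeR adjusted p = 0.0465), a call lost without any one line (0.0606 to 0.156). Both genes passed the filter only through the genotype where they were high, and under a filter of 10 counts in each line neither entered the test.

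*Ptprb* (VE-PTP) and *Flt1* (VEGFR1) were the most abundant genes of the endothelial lists. *Ptprb* was at 42.0, 18.6 and 1.40 CPM against 81.8, 29.6 and 68.2 CPM (edgeR adjusted p = 0.417), and *Flt1* at 7.36, 6.79 and 1.65 CPM against 26.8, 14.97 and 3.25 CPM (edgeR adjusted p = 0.336), with overlapping lines in both. *Cdh5* (VE-cadherin), the defining junction protein of endothelium, was at 0.387, 0.410 and 0.166 CPM against 0.882, 1.69 and 0.375 CPM (edgeR adjusted p = 0.221). The summed level of the lists without members was 71.2, 55.7 and 19.3 CPM against 126.3, 69.6 and 85.9 CPM, and without *Ptprb* and *Flt1* 21.8, 30.4 and 16.3 against 17.6, 25.1 and 14.4 CPM. In the *Nf1*/*Cdkn2a* dKO libraries *Laptm5* and *Esam* had 139 to 622 reads. There *Tyrobp*, *Spi1*, *Fcer1g* and *Kdr* had 0 to 4, *Lyz2* 0 to 5, *Pecam1* 0 to 7, *Ptprc* 2 to 16 and *Csf1r* 12 to 71. Of the leukocyte lists, *Cd14*, *Cytip* and *Arhgdib* were above 10.0 CPM in each line of that genotype. *Cd53* was at 9.995 to 12.3 CPM in these lines.

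The relatives of the 2 genes were present in all lines. *Laptm4a* and *Laptm4b*, the other members of the lysosomal LAPTM family, were at 213.2 to 669.1 and 67.9 to 129.5 CPM over the 6 lines, and neither was called (edgeR adjusted p = 0.222 and 0.816). Of the junctional adhesion molecules related to *Esam*, *F11r* (JAM-A) was at 2.73, 0.849 and 0.360 CPM against 6.29, 11.1 and 14.0 CPM (edgeR adjusted p = 0.0955). *Jam2* was at 23.7, 34.7 and 26.5 CPM against 83.2, 131.5 and 46.0 CPM (edgeR adjusted p = 0.0826), and *Jam3* at 19.9, 40.4 and 37.3 CPM against 16.6, 14.4 and 7.27 CPM (edgeR adjusted p = 0.119). Lines did not overlap in these 3, which were higher for *F11r* and *Jam2* and lower for *Jam3*, and none of the 6 relatives of *Esam* was called. Over all tested genes, lines did not overlap for 31.4% and 1.8% were called, so the counts for so few relatives are a description.

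Partners of the receptors gave 2 further calls, where 1.8% of all tested genes were called. Both *Csf1* (285.4 to 1821 CPM) and *Il34* (16.8 CPM or more), the ligands of *Csf1r*, were expressed in all lines and not called (edgeR adjusted p = 0.440 and 0.299). Of 9 VEGF ligands and receptors beside *Kdr*, *Vegfa* fell from 172.4, 157.5 and 202.6 CPM to 70.5, 70.5 and 81.2 CPM (log2 difference -1.26, SE 0.15, edgeR adjusted p = 0.0272). *Vegfc*, the lymphatic growth factor, fell from 18.2, 22.9 and 23.9 CPM to 2.87, 4.47 and 3.35 CPM (-2.60, SE 0.26, edgeR adjusted p = 0.0198). Both calls were lost without *Nf1*/*p53* dKO line 2 or any *Nf1*/*Cdkn2a* dKO line (up to 0.124 and 0.0981) and with the line number as a block (0.101 and 0.0965). The ITAM kinase *Syk*, which acts below *Tyrobp* and *Fcer1g*, was at 2.44 to 5.02 CPM and 2.60 to 16.9 CPM (edgeR adjusted p = 0.403).

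Of transcription factors listed for blood and endothelial cells, *Ets1* rose, from 71.6, 82.5 and 73.9 CPM to 188.2, 217.1 and 161.6 CPM (log2 difference 1.31, SE 0.16, edgeR adjusted p = 0.0272). The call was lost when any one line was left out (0.0541 to 0.112) and with the line number as a block (0.103). The fitted difference was 1.21 to 1.42 with 1 line left out. *Gata2* was at 13.9, 16.5 and 34.6 CPM against 91.9, 41.3 and 97.0 CPM without a call (edgeR adjusted p = 0.0918), and *Erg*, an endothelial ETS factor, had at most 3 reads in every library. Of 5 ubiquitin ligases listed as partners of *Laptm5*, none was called, *Wwp1* being nearest at 66.6, 61.7 and 48.0 CPM against 124.2, 104.2 and 150.1 CPM (edgeR adjusted p = 0.0509). Over all tested genes 1.8% were called, so the counts for these short lists are a description.

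PU.1 and other ETS factors recognize purine-rich DNA around GGAA, and promoter windows were read for the leukocyte members because *Laptm5* was high in lines where *Spi1* was at or near 0. RefSeq promoters of GRCm38.p6 were read for 5 of the 10 members (*Laptm5*, *Ptprc*, *Fcer1g*, *Kdr* and *Lyz2*), and none was read for *Esam*, *Tyrobp*, *Spi1*, *Csf1r* and *Pecam1*. In the 250 bases before the start, GAGGAA (the PU box, here searched on both strands) was held by 23.3% of 32851 promoters, and CGGAAG, another ETS site, by 13.6%. The windows of *Laptm5* (chr4:130913066-130913315, plus strand) and *Fcer1g* (chr1:171234350-171234599, minus strand) are shown as the leukocyte genes with high and with nearly no counts, with matches in capitals and the rest in lower case, 5′ to 3′ on the strand of the gene.
Laptm5: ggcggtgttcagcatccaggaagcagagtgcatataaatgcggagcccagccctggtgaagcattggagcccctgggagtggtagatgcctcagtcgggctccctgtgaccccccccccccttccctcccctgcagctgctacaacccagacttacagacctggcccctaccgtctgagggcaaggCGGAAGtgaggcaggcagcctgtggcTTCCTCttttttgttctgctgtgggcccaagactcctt
Fcer1g: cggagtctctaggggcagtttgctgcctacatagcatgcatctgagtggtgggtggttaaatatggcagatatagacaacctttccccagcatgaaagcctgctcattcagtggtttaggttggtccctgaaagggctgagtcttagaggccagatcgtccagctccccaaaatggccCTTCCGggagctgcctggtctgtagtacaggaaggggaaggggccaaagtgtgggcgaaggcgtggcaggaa
The *Laptm5* window holds CGGAAG on its own strand, with its first base at -64 from the RefSeq start. It also holds the PU box in reverse (TTCCTC) at -38. In GENCODE M21 *Laptm5* starts earlier, at 130913125, so both matches lie inside the gene as annotated there. The *Fcer1g* window holds CGGAAG in reverse (CTTCCG) at -72 and no PU box, and the windows of *Lyz2* and *Kdr* hold neither. One of the 2 *Ptprc* windows holds a PU box at -158. A match is a description of the letters only.

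*Laptm5* lies on chromosome 4 (130913125 to 130936141, plus strand) and *Esam* on chromosome 9 (37528078 to 37538319, plus strand) in GENCODE M21 on GRCm38, and neither overlaps another annotated gene. Among the neighbours of *Laptm5* reported here (*Nkain1*, *Sdc3*, *Matn1*, *Ptpru* and *Mecr*), none had separate lines, and *Matn1* had no read in any line. Around *Esam*, 5 of the 6 nearest protein-coding genes (3 on each side) were higher in all *Nf1*/*Cdkn2a* dKO lines than in any *Nf1*/*p53* dKO line. None of them passed the threshold, and 14.8% of all tested genes were higher in this way. *Robo3* (2, 0 and 0 reads against 15, 18 and 11) and *Vsig2* (2, 20 and 3 against 72, 137 and 425) passed the filter through the *Nf1*/*Cdkn2a* dKO lines. Genes that enter in that way had to differ, so the count of 5 is a description, and an excess over 14.8% was not tested. *Nrgn*, a calmodulin-binding protein of neurons, was at 1.48, 0.113 and 0.208 CPM against 28.2, 49.7 and 262.5 CPM (log2 difference 7.54, SE 1.44, edgeR adjusted p = 0.0543). *Vsig2* was at 0.0258, 0.283 and 0.0415 CPM against 1.16, 1.98 and 6.65 CPM (4.79, edgeR adjusted p = 0.0855), and *Siae* at 14.2, 14.6 and 5.70 CPM against 26.9, 44.3 and 72.4 CPM (2.06, edgeR adjusted p = 0.0830).

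*Robo3*, on the other side of *Esam*, was at up to 0.0258 CPM against 0.172 to 0.260 CPM (edgeR adjusted p = 0.0696), and *Msantd2* at 11.3 to 17.3 CPM against 17.7 to 24.6 CPM (edgeR adjusted p = 0.164). The sixth, *Robo4*, itself an endothelial gene, had 1 read in 1 line of each genotype. *Nrgn*, *Vsig2* and *Siae* were highest in *Nf1*/*Cdkn2a* dKO line 3, and *Esam* in line 1.

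**Figure D4:**
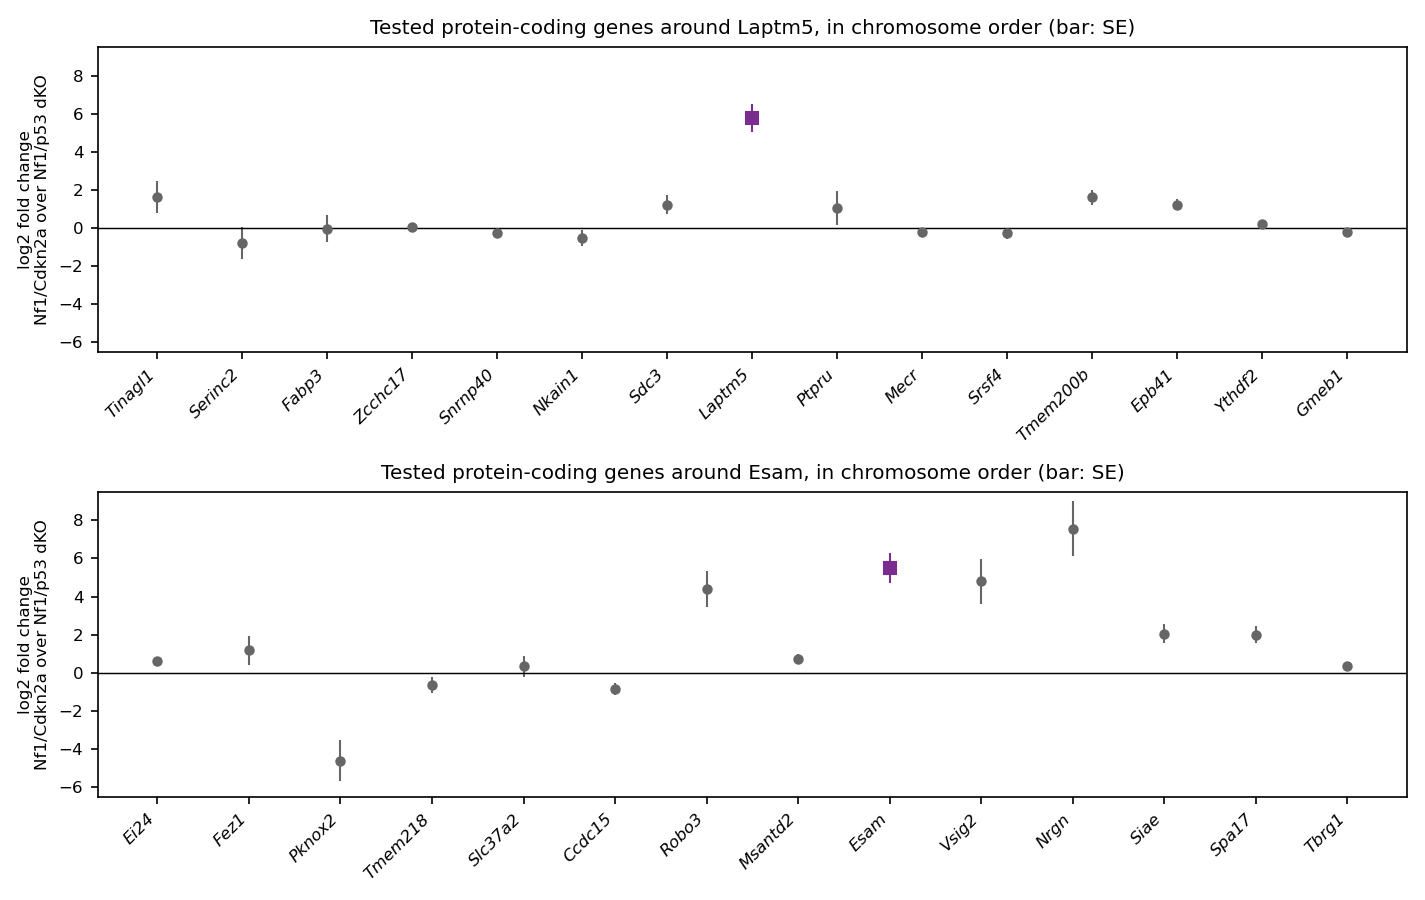
Log2 fold change between the genotypes (positive is higher in *Nf1*/*Cdkn2a* dKO lines) of tested genes among the 10 nearest protein-coding genes on each side of *Laptm5* (top) and *Esam* (bottom), in chromosome order without distances. Points are fitted values, bars SE and the square the member; *Vsig2* and *Nrgn* lie at 4.79 and 7.54 beside *Esam*, while those shown around *Laptm5* lie between -0.77 and 1.64.

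The genes whose levels followed *Laptm5* and *Esam* most closely over the 18 libraries are given as a description, and those named are not on the leukocyte or endothelial lists. Beside the members, only 20 leukocyte and 13 endothelial list genes passed the filter on line sums. With so few markers among so many genes, their absence from the nearest ones cannot decide whether other markers followed *Laptm5* or *Esam*. By Pearson's r of log2 CPM over 14419 genes, those nearest to *Laptm5* were *Ahr* (0.986), *Cdc42ep2* (0.983), *Uaca* (0.980), *Meis2* (0.979) and *Epha5* (0.977). *Ahr*, a ligand-activated transcription factor, was at 30.3, 10.47 and 15.5 CPM against 111.3, 108.0 and 137.9 CPM. Nearest to *Esam* were *Rps6ka4* (0.977), *Ercc1* (0.973), *Xpnpep1* (0.973), *Ddb1* (0.967) and *Axl* (0.966), with *Axl*, a receptor tyrosine kinase, at 1244, 1238 and 937.9 CPM against 2017, 1769 and 1941 CPM. The libraries belong to 2 genotypes and 6 lines and are not independent, and a gene that differs between the genotypes in the same direction can score high, so these values are a measure of likeness only.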

How the data were processed

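RNA-seq of 18 cultures (6 lines, 3 cultures each) was used. The values the authors deposited are raw read counts of 35275 genes, not normalized. The submitters' processing notes name CASAVA, STAR 2.5, DESeq2 1.14.1 and GRCm38/mm10. The counting tool, its annotation and its strand setting are not given in the sources used here. Groups, lines and cultures came from the labels. The members and the 21 gene lists (227 entries, all found, 3 under an older symbol) were chosen with earlier results of these data known.

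Counts of the 3 cultures were summed per line, so the line was the replicate. Genes passed edgeR's filterByExpr (minimum count 10, minimum total 15), were scaled with TMM and compared by the quasi-likelihood F test of edgeR, with p-values adjusted by Benjamini and Hochberg (edgeR 4.0.16, limma 3.58.1, DESeq2 1.42.0, R 4.3.3; threshold 0.05, 15207 genes). Lines of a genotype were compared over their 18 cultures in the same way (14690 genes). The steps were tested on simulated counts. Library depths of 19560535 to 28312207 reads leave genes of a few reads uncertain, and a count of 0 allows up to 3 counts. Ratios per kb used exons of GENCODE M21, which lists 34490 of the genes, with exact 95% intervals for counting error. No culture duplicated another (chi-square per degree of freedom 3.50 to 27.1 within a line).

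Genes named are the members, per list the called genes (up to 3 each way) and the 2 of highest level, the LAPTM, JAM, CSF1 and VEGF families, the 5 genes most like *Laptm5* and *Esam* by Pearson's r, and the 3 nearest protein-coding genes on each side. Others, such as *S100a8*, *Itgax*, *Lcp1*, *Cd74*, *Coro1a*, *Cdh5*, *Irf8*, *Syk* and *Wwp1*, and the window of 10 genes on each side, were chosen after their values were seen. Some single-gene values are not reported here.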

Additional observations from a re-analysis of the deposited data

Results flagged for a closer look

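In 4 cases a culture stood apart from the other 8 of their genotype by Dixon's test (9 values, 95% level), each for a member counted in single reads. *Tyrobp* was at 0.0430 CPM (1 read) in the third culture of *Nf1*/*Cdkn2a* dKO line 1 and at 0 in the other 8. *Spi1* was at 0.0422 CPM (1 read) in the third culture of *Nf1*/*p53* dKO line 3 and at 0 in the rest, and at 0.196 CPM (4 reads) in the first culture of *Nf1*/*Cdkn2a* dKO line 1, where the next culture had 0.0387 CPM. *Kdr* was at 0.139 CPM (3 reads) in the third culture of *Nf1*/*Cdkn2a* dKO line 3, with the next at 0.0533 CPM. In all, 20 groups of a gene and a genotype were looked at, and cultures of a line are not independent. The 95% level holds for continuous values. With 8 cultures at 0, a single read is always flagged, so the number of flags cannot be set against a chance rate.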

How the results depend on the processing

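*Laptm5* and *Esam* were higher, and *Pecam1* and *Csf1r* lower, in the *Nf1*/*Cdkn2a* dKO lines under each alternative in which they could be tested (*Laptm5*, *Esam* and *Pecam1* fell below the filter of at least 10 counts in every line, and *Pecam1* also below that of the edgeR and limma-voom fits on 18 cultures). The list sums moved by less than their spread between lines. With the longest transcript as length, the mean ratio per kb of *Laptm5* to *Ptprc* in the *Nf1*/*Cdkn2a* dKO lines went from 219.8 to 100.4. That of *Esam* to *Pecam1* went from 147.1 to 125.0. The counts of called genes depended strongly on the test and the unit of replication, and the cause was not tested. All genes called, 274 in the main analysis, were 2046 with DESeq2 on the 6 lines, 6096 and 7224 with edgeR and DESeq2 on 18 cultures as separate samples, 2173 with limma-voom taking lines as random effects, 423 with raw totals in place of TMM, and 0 to 172 with 1 line left out (0 without *Nf1*/*Cdkn2a* dKO line 1, where 2668 had an unadjusted p under 0.05). For the leukocyte lists, 1 gene called higher became 5, 7, 8 and 4 in the same order of tests, 2 without a filter and 0 to 1 with 1 line left out. The 0 leukocyte genes called lower by edgeR (1 at an unadjusted p under 0.05) became 1, 1 and 3 with DESeq2 on lines and edgeR and DESeq2 on cultures. For the endothelial lists, 1 called higher became 4, 5 and 2 with edgeR and DESeq2 on cultures and limma-voom, and 0 to 1 with 1 line left out. The 1 called lower became 3, 3, 6 and 0 with DESeq2 on lines, edgeR and DESeq2 on cultures and limma-voom, and 0 in each case with 1 line left out. With at least 10 counts in every line, both endothelial counts were 0 (1 gene each way at an unadjusted p under 0.05). That filter removes genes absent from one genotype. Members called between the *Nf1*/*p53* dKO lines were 4 in the main analysis and 2 to 3 with 1 culture left out.

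Line and culture numbers recur in the labels of both genotypes. Lines of the same number did not deviate together (correlations of -0.099, -0.133 and -0.085 for lines 1, 2 and 3), so the numbers do not pair the lines. With the line number as a replicate block, edgeR called 0 genes in all (2740 at an unadjusted p under 0.05), and hence 0 leukocyte (6 unadjusted) and 0 endothelial genes (6 unadjusted) in either direction. With the culture number as a replicate block over 18 cultures, 5681 genes were called, with 6 leukocyte genes higher and 1 lower and 3 endothelial genes higher and 3 lower.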

Other observations

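Marker genes of other cell types were read in the same way. Of 9 mural cell genes, which mark pericytes and vascular smooth muscle, 6 were tested and none was called, although *Notch3* (2.20, 2.16 and 15.8 CPM against 0.369, 0.447 and 1.05 CPM, edgeR adjusted p = 0.113), *Mcam* and *Cox4i2* were lower in every *Nf1*/*Cdkn2a* dKO line. The 5 adipocyte genes were all below the filter, with summed levels of 0.0433 to 0.170 CPM, and the 8 erythroid genes summed to 0.305 to 1.49 CPM. Of 7 platelet genes 3 were tested and none was called. Among 7 transcription factors of blood cells beside *Spi1*, 5 were tested and none was called, with *Cebpa* at 9.71, 15.3 and 48.1 CPM against 4.85, 1.26 and 2.13 CPM (edgeR adjusted p = 0.0891). Of 14 other genes of ITAM signaling, 6 were tested and none was called. Over all tested genes 1.8% were called and 31.4% had lines without overlap, so short lists without a call do not stand apart.

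In a wider window chosen after the values were seen, the 10 nearest protein-coding genes on each side of *Esam* included 13 that were tested, of which 7 were higher and 2 lower in every *Nf1*/*Cdkn2a* dKO line, with none called. *Spa17*, next to *Siae*, was at 0.980, 0.764 and 1.01 CPM against 2.76, 2.67 and 5.65 CPM (edgeR adjusted p = 0.0653). *Pknox2*, on the other side, was at 2.00, 7.04 and 12.7 CPM against 0.594, 0.0433 and 0.250 CPM (edgeR adjusted p = 0.0800). Around *Laptm5*, 15 were tested, 2 were higher in every *Nf1*/*Cdkn2a* dKO line (*Tmem200b* and *Epb41*), none was lower and none was called. Over all tested genes, 14.8% were higher and 16.6% lower without overlap, and 1.8% were called.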
